A study of Mus musculus with 4 samples.

Results

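The genes described are the nuclear-encoded subunit genes of respiratory chain complexes I to IV in mouse neutrophils. They were chosen by symbol alone: Ndufa, Ndufb, Ndufc, Ndufs or Ndufv followed by a number, Sdha to Sdhd, any symbol that begins with Uqcr, and any that begins with Cox4 to Cox8. The rule found 67 of the 16566 genes in the files, with 40 assigned by their symbols to complex I, 4 to complex II, 8 to complex III and 15 to complex IV. RNA was sequenced from neutrophils, short-lived phagocytes of the innate immune system, taken from C57BL/6 bone marrow at a stated purity above 95%. Both groups were cultured in medium with 20% fetal bovine serum for 1 h. The ruxolitinib group, with 2 libraries, received this JAK1 and JAK2 kinase inhibitor for 1 h, at 0.1 µM by the treatment label and at 1 µM by the treatment protocol and the file headers, so its dose is uncertain. The vehicle group, also with 2 libraries, received 80% glucose and 20% PEG300 for the same time. The labels give no genotype, age or sex, and nothing says that the libraries of a group came from separate mice or cultures, so p-values measure the spread between these libraries, which may be technical.

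The respiratory chain carries electrons from NADH (complex I) and succinate (complex II) through ubiquinone, complex III and cytochrome c to oxygen at complex IV, and complexes I, III and IV pump protons across the inner mitochondrial membrane. Complexes I, III and IV also hold subunits encoded in mitochondrial DNA. Of 26 mitochondrially encoded symbols looked for, 0 were among the genes measured, so no values for them are given. Mature neutrophils are known to have few mitochondria and to make most of their ATP by glycolysis.

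The libraries held between 14235511 and 15419579 estimated counts. The respiratory chain genes took 0.180% and 0.240% of the counts with ruxolitinib, against 0.186% and 0.169% with vehicle, in each case replicates 1 and 2 in turn, as throughout. All 12 defining neutrophil markers were present, led by S100a9 at 81068 and 87399 TPM (a level scaled by gene length and library) with ruxolitinib and 79114 and 86080 TPM with vehicle. Ruxolitinib replicate 2 stood apart in its length profile: the ratio of TPM to FPKM, which depends on how long the sequenced transcripts are, was 1.46 there and between 1.71 and 1.73 in the other libraries. Vehicle replicate 2 stood apart in immediate early and heat shock genes, whose summed level was 1062 and 1239 CPM (counts scaled to library size) with ruxolitinib and 1098 and 4769 CPM with vehicle.

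The genes were expressed at moderate levels, with complex IV highest per gene. Of the 67 genes, 18 had a mean above 100 TPM, 41 lay between 10 and 100 TPM, 4 between 1 and 10 TPM and 4 below 1 TPM. Their median of 53.7 TPM compares with 13.3 TPM over all genes tested. Among tested genes the median level was 42.5 TPM for complex I, 54.9 TPM for complex II, 62.7 TPM for complex III and 156 TPM for complex IV. The order of levels was close to the same in every library, with Spearman's rho between 0.970 and 0.994 for the 6 pairs of libraries over the 67 genes, a description across genes that share the same libraries.

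In complex I the levels of tested genes spanned 24.9-fold by TPM, from Ndufa11, a membrane-arm subunit, at 8.54 TPM to Ndufa3 at 212 ± 51.4 TPM (SD over 4 libraries). TPM divides by length, which was 2533 nt for Ndufa11, and by CPM Ndufa11 was not the lowest. Ndufa3, an accessory subunit, was at 184 and 289 TPM with ruxolitinib and at 190 and 187 TPM with vehicle. Ndufb7, another accessory subunit, was at 180 and 258 TPM with ruxolitinib and at 204 and 189 TPM with vehicle. For both genes the high value was ruxolitinib replicate 2, and the other 3 libraries lay close together. Of the core genes, 6 (Ndufs1, Ndufs3, Ndufs7, Ndufs8, Ndufv1 and Ndufv2) averaged between 17.6 and 42.5 TPM. Ndufa3 and Ndufb7 were the highest genes of the complex, so they do not stand for accessory genes in general. Ndufa10, another accessory gene, averaged 26.9 TPM. Ndufv1, whose product binds NADH and the flavin, was at 18.3 and 14.5 TPM with ruxolitinib and 21.4 and 16.4 TPM with vehicle.

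Complex II is the one complex of the chain that is also a tricarboxylic acid cycle enzyme, and its 4 genes differed by no more than 1.77-fold. Sdhb, the iron-sulphur subunit, averaged 70.4 ± 4.62 TPM (SD, n = 4 libraries) and Sdhc, a membrane anchor, 39.7 ± 3.80 TPM. Sdha, the flavoprotein that oxidises succinate, was at 44.2 and 35.9 TPM with ruxolitinib and at 45.4 and 56.2 TPM with vehicle. Sdhd, the other membrane anchor, was at 66.8 and 70.2 TPM with ruxolitinib and at 68.9 and 51.7 TPM with vehicle. Vehicle replicate 2 was thus the highest library for Sdha and the lowest for Sdhd.

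In complex III the highest gene was Uqcrh, which encodes the hinge protein beside cytochrome c1, at 155 and 213 TPM with ruxolitinib and 158 and 131 TPM with vehicle. Uqcr10, a small subunit, followed at 124 and 123 TPM with ruxolitinib and 115 and 93.0 TPM with vehicle, and Uqcrb, a small ubiquinone-binding subunit, at 95.9 and 122 TPM against 109 and 93.5 TPM. The genes of the large core proteins, Uqcrc1 and Uqcrc2, averaged 68.6 ± 8.62 and 55.6 ± 6.96 TPM (SD, n = 4 libraries). The lowest tested gene of the complex by TPM was Uqcrq, for a small ubiquinone-binding subunit, at 33.9 TPM. TPM divides by length, which was 1392 nt for Uqcrq, and by CPM Uqcrq was not the lowest.

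Complex IV held 9 of the 18 genes above 100 TPM. Cox8a, the highest of all 67 genes, was at 421 and 534 TPM with ruxolitinib and at 445 and 404 TPM with vehicle. Cox6a1 was at 345.5 and 345.2 TPM with ruxolitinib and at 356 and 327 TPM with vehicle, and Cox4i1, the regulatory subunit that binds ATP, at 314 and 411 TPM against 318 and 261 TPM. Cox6a1 was the steadiest of these genes on the TPM scale, while Cox4i1 and Cox8a were highest in ruxolitinib replicate 2 and lowest in vehicle replicate 2. Ndufa4, named as a complex I gene but known as a subunit of complex IV, was at 120 and 149 TPM with ruxolitinib and at 128 and 109 TPM with vehicle. These levels lie inside the range of the tested genes of both complexes, so they do not tell the complexes apart.

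**Figure D1:**
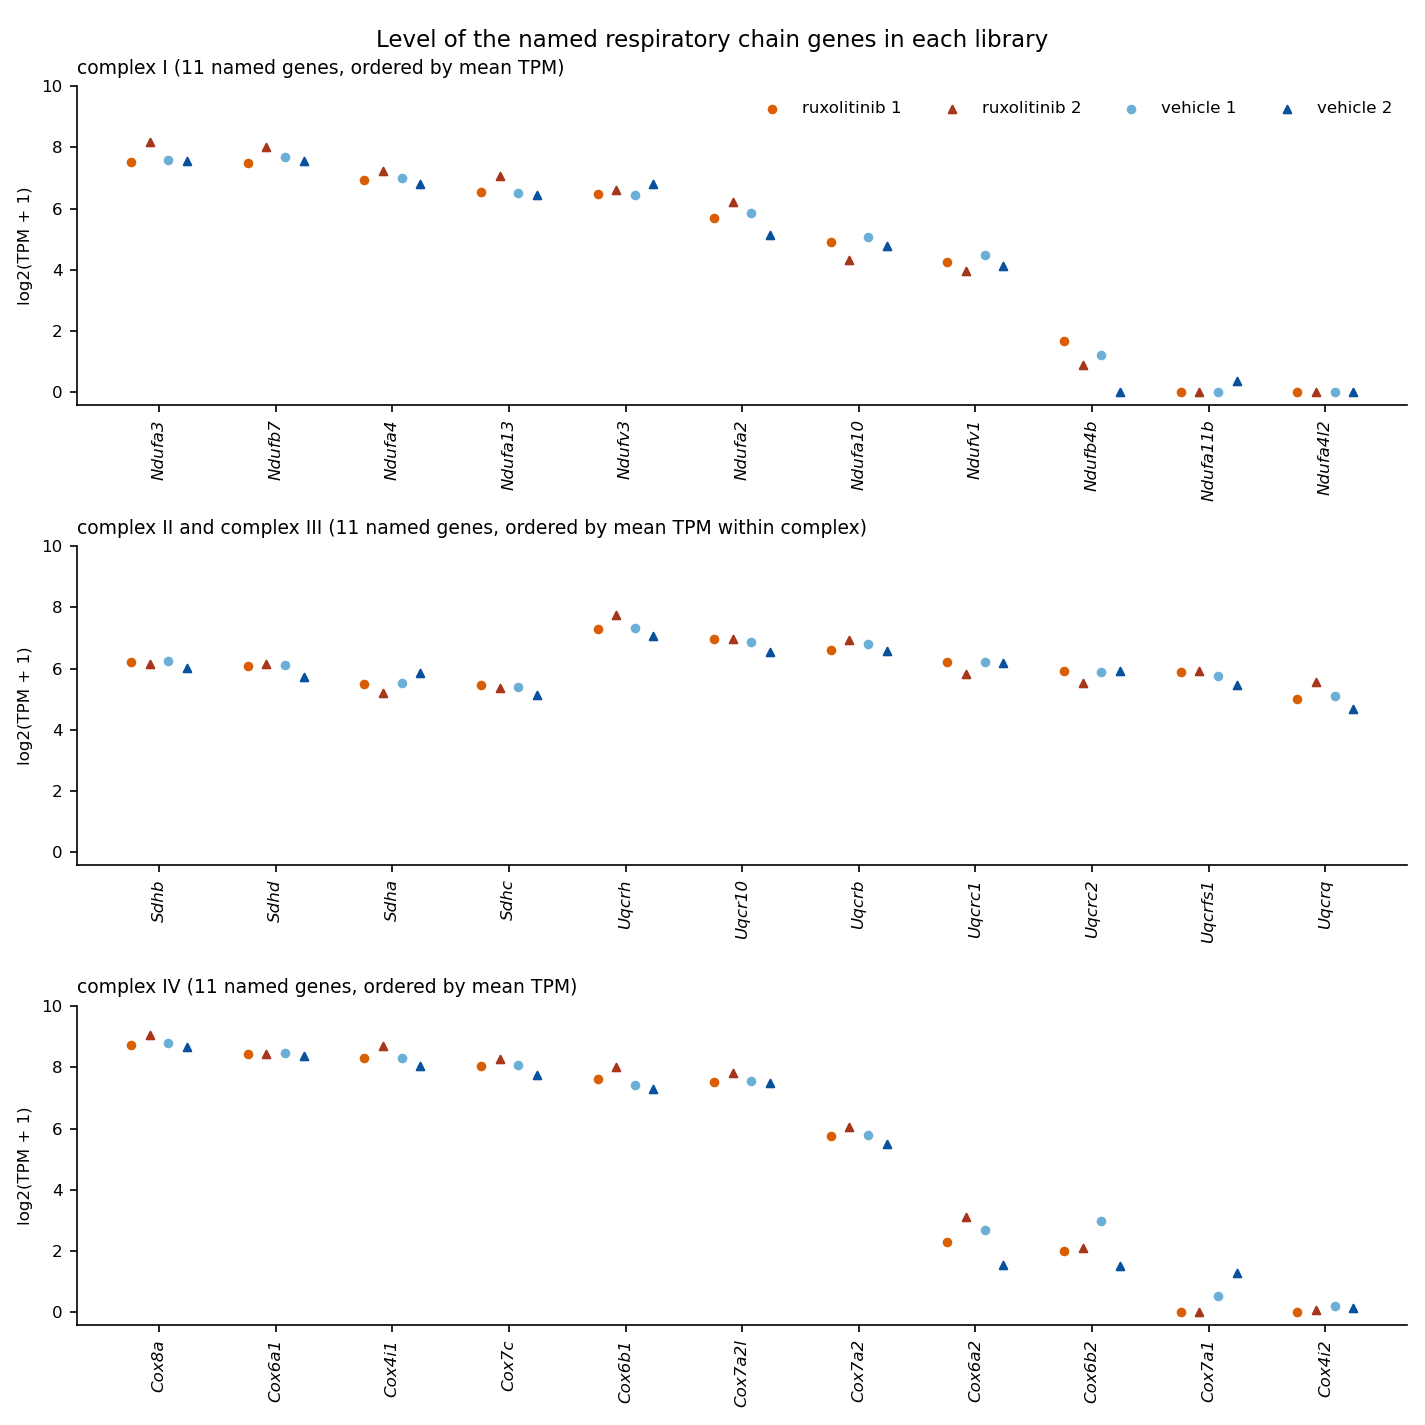
Level of the named genes, chosen by level, by p or as isoforms or untested genes, as log2(TPM + 1) on the vertical axis, by library (2 ruxolitinib in orange and red, 2 vehicle in blue), ordered by mean TPM within each complex. Most genes lie between 10 and 534 TPM, the 4 libraries lie close together for most genes, and the tissue isoforms Cox6a2, Cox6b2, Cox7a1 and Cox4i2 lie at the low end of complex IV.

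Several complex IV subunits exist as isoform pairs, 1 broadly expressed and 1 known from particular tissues, and the broadly expressed form made up nearly all of the RNA in each such pair. Cox4i2, known from lung and as a hypoxia-responsive form, had 0 and 1 counts with ruxolitinib and 3 and 2 counts with vehicle, while Cox4i1 had between 1408 and 2466 counts per library. Cox6a2, the heart and skeletal muscle form, took 1.35 ± 0.672% of the Cox6a TPM (SD, n = 4 libraries). Cox6b2, known from testis, took 1.95 ± 1.25% of the Cox6b TPM. Cox7a1, the other heart and muscle form, had 0 counts in both ruxolitinib libraries and 1 and 3 counts with vehicle. Cox7a2l made up 77.9 ± 1.22% of the TPM of its family, and Cox7a2, the ordinary subunit, 21.9 ± 1.51%.

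Paralogs with near-identical sequence can share reads. Ndufb4, Ndufb4b and Ndufb4c had fractional counts, and so did Ndufa13 and Uqcrc2, so reads of these 5 genes were divided between loci by the submitters' counting and their values are uncertain. Ndufb4 took 83.1 ± 3.81% of the TPM of its family. Ndufa4l2 had 0 counts in all 4 libraries, and Ndufa11b, annotated as a transcribed pseudogene, had 1 count in vehicle replicate 2 and 0 elsewhere.

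Promoter sequence is a feature that the rule did not use. The table of RefSeq promoters (GRCm38.p6, 250 bases before and 50 after the start) held 54 windows for 52 of the 67 genes. These windows were searched on both strands for letters bound by regulators known to act on nuclear respiratory genes: GCGCATGCG for NRF1, CCGGAAGT for the ETS-family factor GABP, and AAGATGGCG for YY1. The NRF1 letters nearly read the same on both strands, so 1 site can match on each strand with the matches 1 base apart, as in Cox6a1, Ndufa11 and Uqcrc1. They were in 5 of the 52 genes (9.62%), against 1.95% of all 27025 genes with a window. For GABP the letters were in 4 genes (7.69%, against 4.31% of all genes), and for YY1 in 5 genes (9.62%, against 1.64%). Altogether 13 of the 52 genes (25%) held at least 1 of the 3, against 7.48% of all genes, and 1 gene, Uqcr11, held 2 kinds. The 27025 genes include many outside the 16566 measured, and a comparison with expressed genes alone was not made. The median base composition was 57.3% G and C in the respiratory chain windows and 52.7% in all windows. A match shows the letters alone and says nothing of binding here. The 5 windows with a match that lies wholly before the start are printed because they show where those letters sit, as the last 180 bases before the start, 5′ to 3′ on the gene's strand, with the match in capitals.
Cox6a1, chr5:115348959-115349138, minus strand, NRF1 letters: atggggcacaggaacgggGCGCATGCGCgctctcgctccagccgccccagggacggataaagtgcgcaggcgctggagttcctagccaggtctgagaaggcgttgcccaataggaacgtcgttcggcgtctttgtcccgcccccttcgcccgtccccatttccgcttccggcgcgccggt
Ndufa8, chr2:36049339-36049518, minus strand, NRF1 letters: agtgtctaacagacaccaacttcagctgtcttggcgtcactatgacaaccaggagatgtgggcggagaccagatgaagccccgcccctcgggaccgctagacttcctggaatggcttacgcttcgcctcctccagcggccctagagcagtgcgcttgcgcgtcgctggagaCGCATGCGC
Ndufa11, chr17:56717582-56717761, plus strand, NRF1 letters: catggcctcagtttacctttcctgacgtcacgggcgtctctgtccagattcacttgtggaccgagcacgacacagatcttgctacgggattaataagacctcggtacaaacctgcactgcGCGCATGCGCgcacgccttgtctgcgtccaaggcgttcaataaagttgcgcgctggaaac
Uqcr11, chr10:80406822-80407001, minus strand, GABP letters: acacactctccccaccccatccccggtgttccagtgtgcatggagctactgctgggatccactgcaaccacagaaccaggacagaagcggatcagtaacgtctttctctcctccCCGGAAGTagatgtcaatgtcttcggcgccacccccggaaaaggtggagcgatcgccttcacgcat
Uqcrh, chr4:116075071-116075250, minus strand, GABP letters: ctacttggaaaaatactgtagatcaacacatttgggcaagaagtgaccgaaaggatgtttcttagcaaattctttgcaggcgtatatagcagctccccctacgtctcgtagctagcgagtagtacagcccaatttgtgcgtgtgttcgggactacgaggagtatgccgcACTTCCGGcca
The match starts 162 bases before the annotated start in Cox6a1, 66 in Uqcr11, 60 in Ndufa11, 11 in Uqcrh and 9 in Ndufa8, so these genes do not share its position. The NRF1 match of Uqcr11 crosses the start and is not marked. The 5 YY1 matches (Ndufa9, Ndufc1, Ndufs4, Ndufs6 and Ndufs7) all began between 22 and 35 bases after the start. Over the genes tested, the 13 with a match had a median log2 fold change (ruxolitinib over vehicle) of 0.22. The 37 with a window and no match had one of 0.35. With the length trend removed in the fit, as described below, these medians were -0.01 and 0.08.

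The comparison of ruxolitinib with vehicle asks whether respiratory chain transcripts respond to JAK inhibition within 1 h. No respiratory chain gene passed the test in either direction, but most lay higher on average with ruxolitinib, and the higher values were those of 1 of the 2 ruxolitinib libraries. Of the 67 genes, 62 passed the filter on low counts. Ndufa11b, Ndufa4l2, Ndufb4b, Cox4i2 and Cox7a1 did not, and were not tested. By edgeR's quasi-likelihood test with Benjamini-Hochberg adjustment over all 11611 genes tested, 0 of the 62 were higher and 0 lower at an adjusted p below 0.05, where 0% of all genes were called in each direction. At an unadjusted p below 0.05 the counts were also 0 and 0, where 0.56% of all genes were higher and 1.38% lower. DESeq2 and limma-voom likewise called 0 of the 62 genes at either threshold. Over all 11611 genes, in both directions together, DESeq2 had 232 with an unadjusted p below 0.05 and limma-voom 188. Neither called any gene at an adjusted p below 0.05.

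The fitted log2 fold change was above 0 for 55 of the 62 genes, where 49.4% of all genes tested were above 0, with a median of 0.31 against -0.01 over all genes. By complex the medians were 0.30 (complex I, 34 of 37 above 0), 0.27 (complex II, 3 of 4), 0.36 (complex III, 6 of 8) and 0.38 (complex IV, 12 of 13). Both ruxolitinib libraries lay above both vehicle libraries for 15 genes (24.2%), where 14.5% of all genes did so, and below both for 1 gene (1.6%), where 12.8% did.

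The 2 libraries of a group did not share the shift. In ruxolitinib replicate 1 the genes lay at a median log2 ratio of -0.03 to vehicle replicate 1, and in ruxolitinib replicate 2 at 0.49 to the same library. Ruxolitinib replicate 2 was the highest of the 4 libraries for 55 of the 62 genes, where 30.7% of all genes were highest there. Vehicle replicate 2 was the lowest for 39 of the 62, a larger share than the 38.6% of all genes that were lowest there. It lay at a median of -0.18 to vehicle replicate 1. Ruxolitinib replicate 2 was the lowest for 3 of the 62, where 29.4% of all genes were. Without ruxolitinib replicate 2 the median over the 62 genes was 0.03 and 36 were above 0, against 48.2% of all genes. Without ruxolitinib replicate 1 the median was 0.57 with 56 above 0, against 47.9% of all genes. Leaving out vehicle replicate 1 gave 0.44 with 58 above 0, against 50.7% of all genes. Leaving out vehicle replicate 2 gave 0.25 with 55 above 0, against 50.9% of all genes. In these fits the library left alone in its group is assumed to vary like the others.

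**Figure D2:**
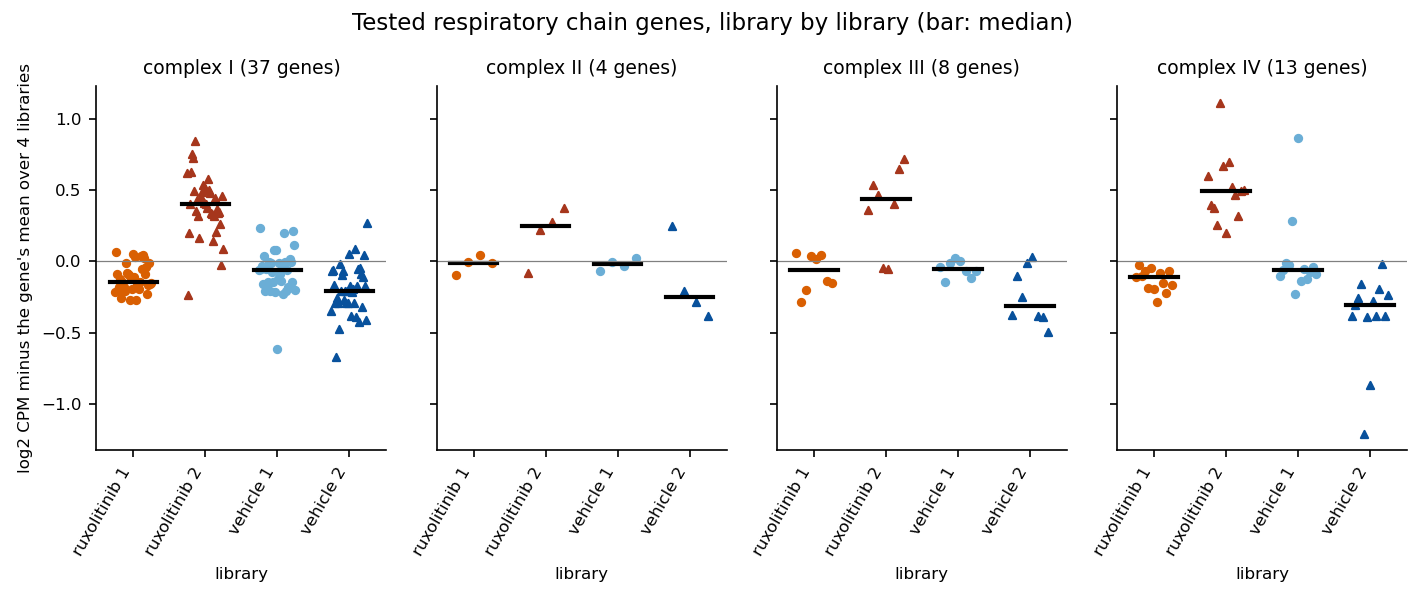
Tested genes of each complex by library: the vertical axis is log2 CPM minus the gene's own mean over the 4 libraries, each point is a gene and each bar the median. Ruxolitinib replicate 2 holds the high points in all 4 complexes, while ruxolitinib replicate 1 lies beside vehicle replicate 1 and vehicle replicate 2 is lowest by its median.

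In complex IV the smallest p of all 62 genes belonged to Cox6b1 (chromosome 7, 30616971 to 30626114, GRCm38.p6), whose product bridges the monomers of the complex IV dimer. Cox6b1 was at 42.3 and 69.3 CPM with ruxolitinib and at 37.2 and 33.3 CPM with vehicle, so the groups did not overlap. Its log2 fold change was 0.66 ± 0.31 (SE, n = 2 per group), with a 95% interval of -0.03 to 1.35 and an unadjusted p of 0.0591 and an adjusted p of 0.975 by edgeR. Cox4i1 was at 111 and 181 CPM with ruxolitinib and 112 and 91.8 CPM with vehicle, where ruxolitinib replicate 1 fell inside the vehicle range, and its log2 fold change was 0.52 ± 0.31. Cox7c, a small transmembrane subunit, was at 48.2 and 71.1 CPM with ruxolitinib and 49.2 and 38.7 CPM with vehicle, a log2 fold change of 0.44 ± 0.31. Cox6a1 lay closer to 0, at 80.4 and 100 CPM against 82.7 and 75.4 CPM, a log2 fold change of 0.19 with an interval of -0.42 to 0.80. The low isoforms had few counts: Cox6a2 had 18 and 40 counts with ruxolitinib and 26 and 9 with vehicle, and Cox6b2 had 11 and 13 with ruxolitinib and 24 and 7 with vehicle, with log2 fold changes of 0.87 ± 0.63 and -0.24 ± 0.66.

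In complex III the Rieske iron-sulphur protein gene Uqcrfs1 was at 39.3 and 50.4 CPM with ruxolitinib and 36.4 and 29.3 CPM with vehicle, without overlap, a log2 fold change of 0.45 ± 0.29. Uqcrq was at 25.1 and 46.0 CPM with ruxolitinib and 26.7 and 19.8 CPM with vehicle, and Uqcrh at 37.1 and 64.0 CPM against 37.8 and 31.2 CPM. For these 2 genes ruxolitinib replicate 1 fell inside the vehicle range, and the log2 fold changes were 0.61 ± 0.35 and 0.55 ± 0.33. The core protein genes lay near 0. Uqcrc1 was at 64.9 and 61.1 CPM with ruxolitinib and 64.1 and 62.8 CPM with vehicle, a log2 fold change of -0.01 with an interval of -0.60 to 0.58. For Uqcrc2 the CPM values were 59.5 and 56.7 with ruxolitinib and 58.9 and 59.9 with vehicle.

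In complex I the smallest p-values among genes above 0 belonged to Ndufa2, Ndufa3 and Ndufa13, all accessory subunits. Ndufa2 was at 13.7 and 25.2 CPM with ruxolitinib and 15.3 and 9.33 CPM with vehicle, a log2 fold change of 0.65 ± 0.38. It was the 1 gene of the 62 to pass in any alternative, at an adjusted p of 0.0292 (edgeR) without vehicle replicate 1, a fit that called 7.13% of all genes higher and 6.62% lower. Leaving out vehicle replicate 2 called 0 of the respiratory chain genes (0.00846% of all genes higher, 0.00846% lower), as did leaving out ruxolitinib replicate 1 (0.0333% and 0.05%) or replicate 2 (0.00832% and 0.0416%). With a replicate block 0 were called (0.0775% of all genes higher, 0.0603% lower), and 0 with the block and the length trend removed (0.224% and 0.121%). Ndufa13 was at 32.2 and 56.4 CPM with ruxolitinib and 32.7 and 29.7 CPM with vehicle. In complex I 3 genes lay below 0: Ndufa10, an accessory subunit, at 18.3 and 14.9 CPM against 20.6 and 16.7 CPM, Ndufv1 at 15.6 and 15.4 CPM against 18.2 and 13.9 CPM, and Ndufv3, an accessory subunit of the NADH-oxidising module, at 33.7 and 39.8 CPM against 32.5 and 44.9 CPM, the ruxolitinib values first. Their log2 fold changes were -0.17 ± 0.31, -0.05 ± 0.31 and -0.08 ± 0.30.

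In complex II, Sdha was the 1 gene of the 62 whose ruxolitinib libraries both lay below the vehicle libraries, at 69.4 and 70.2 CPM with ruxolitinib and 71.1 and 88.2 CPM with vehicle. Its log2 fold change was -0.19 with an interval of -0.80 to 0.42. Sdhb and Sdhc went the other way without overlap, Sdhb at 40.13 and 46.84 CPM against 40.07 and 34.83 CPM and Sdhc at 25.7 and 30.2 CPM against 24.4 and 20.4 CPM. For Sdhb the nearest libraries of the groups were almost level. Sdhd was at 44.4 and 58.2 CPM with ruxolitinib and 45.7 and 34.3 CPM with vehicle.

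Most respiratory chain subunits are small proteins with short mRNAs, and the shift moved with transcript length. Over the 62 genes the median effective length, the transcript length that the deposited counts and FPKM imply, was 545 nt, against 2749 nt over all genes tested. Of the 47 genes under 1000 nt, 45 had a log2 fold change above 0 (median 0.36), and ruxolitinib replicate 2 was the highest library for 45. All 1019 tested genes of that length, these 47 included, had a median of 0.23. Of the 15 genes of at least 1000 nt, 10 were above 0 (median 0.18), and all 10592 tested genes of that length had a median of -0.02. Uqcrc1 (1527 nt), Uqcrc2 (1753 nt), Ndufv1 (1480 nt), Ndufa10 (1091 nt) and Sdha (2730 nt), 5 of the 7 genes below 0, were in the longer class. Uqcrq (1392 nt, log2 fold change 0.61), Uqcrfs1 (1185 nt, 0.45) and Sdhd (1157 nt, 0.36) were also in it and had the highest values there. Across the 62 genes Spearman's rho between length and log2 fold change was -0.36, and across all 11611 genes it was -0.21, both descriptions over genes measured in the same 4 libraries.

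Tested genes of 163 to 1516 nt were the shortest of 5 equal length classes. Among them the 57 respiratory chain genes had a median of 0.35 and the other 2266 genes one of 0.13. Length was not matched within the class: 47 of the 57 were under 1000 nt, against 1019 of all 2323 genes there. When each library's trend on length was removed in the fit, the median over the 62 genes was 0.08, with 38 above 0 and 24 below, and the median over all genes was -0.01. By complex it was then 0.08, 0.14, 0.02 and 0.11 for complexes I, II, III and IV. After that step Uqcrq had a log2 fold change of 0.53, Uqcrfs1 one of 0.35, Ndufa2 one of 0.35 and Cox6b1 one of 0.31, while Ndufa3 was at 0.05, Cox8a at 0.04 and Cox6a1 at -0.10. No gene passed in that fit either.

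**Figure D3:**
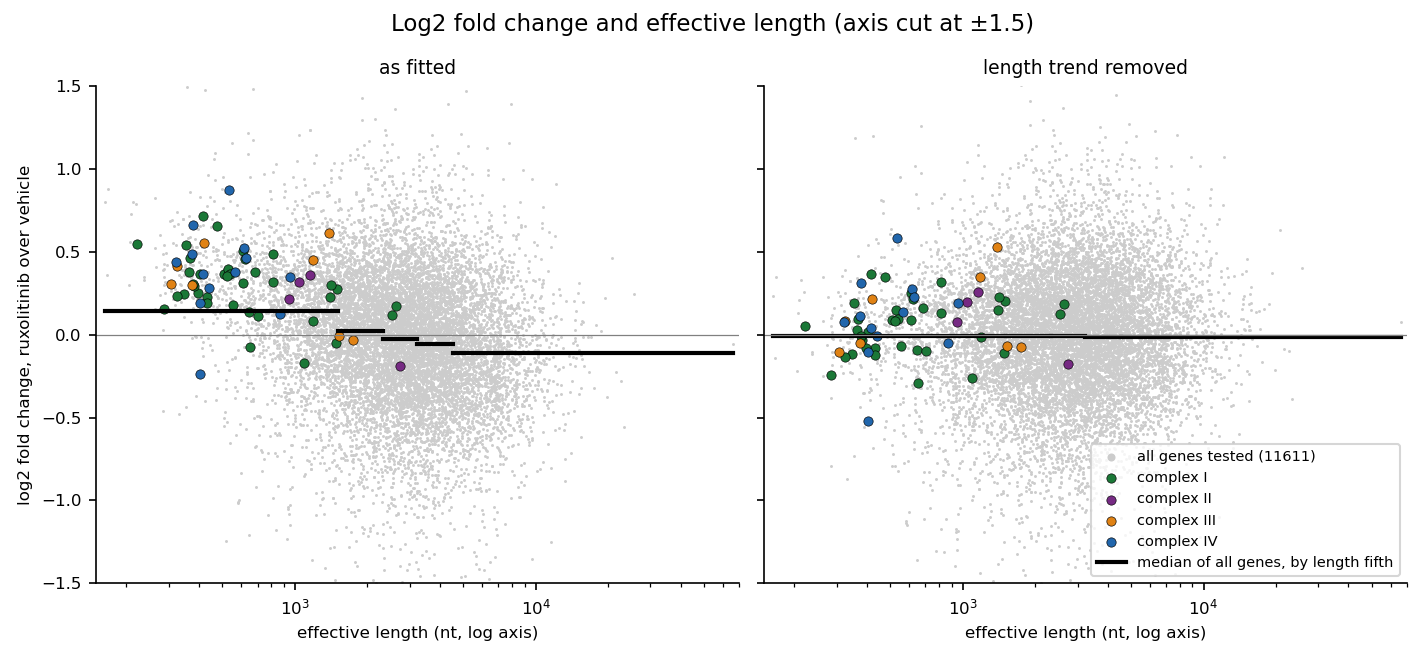
Log2 fold change (ruxolitinib over vehicle) against effective length in nt on a log axis, as fitted on the left and with each library's length trend removed on the right. Grey points are all 11611 genes tested, coloured points the 62 respiratory chain genes, and black bars the median of each of 5 length classes. Genes beyond 1.5 in either direction lie outside the axis. The coloured points crowd at short lengths, where the first bar lies at 0.14 on the left and at -0.01 on the right.

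The scale also mattered. TPM divides each library by its own length-weighted total, and on log2(TPM + 1) the median over all genes was -0.13, so values are relative to that shift. On that scale the median of the 62 genes was 0.14, which is 0.26 above the median of all genes, and 48 were above 0, against 33.1% of all genes. Summed over complex I the level was 2082 and 2570 TPM with ruxolitinib and 2174 and 2022 TPM with vehicle. Complex II summed to 228 and 216 TPM with ruxolitinib and 229 and 206 TPM with vehicle, complex III to 646 and 733 TPM against 655 and 573 TPM, and complex IV to 2188 and 2652 TPM against 2243 and 1965 TPM. On summed TPM ruxolitinib replicate 2 was the highest library for complexes I, III and IV but not for complex II. On summed CPM it was the highest for complex II too, at 180 and 205 CPM with ruxolitinib and 181 and 178 CPM with vehicle. Of the summed TPM, complex I took 40.5% and 41.7% with ruxolitinib and 41% and 42.4% with vehicle. Complex II took 4.43% and 3.5% with ruxolitinib and 4.33% and 4.33% with vehicle, lowest in ruxolitinib replicate 2. Complex III took 12.6% and 11.9% against 12.4% and 12%, and complex IV 42.5% and 43% against 42.3% and 41.2%, the ruxolitinib values first.

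**Figure D4:**
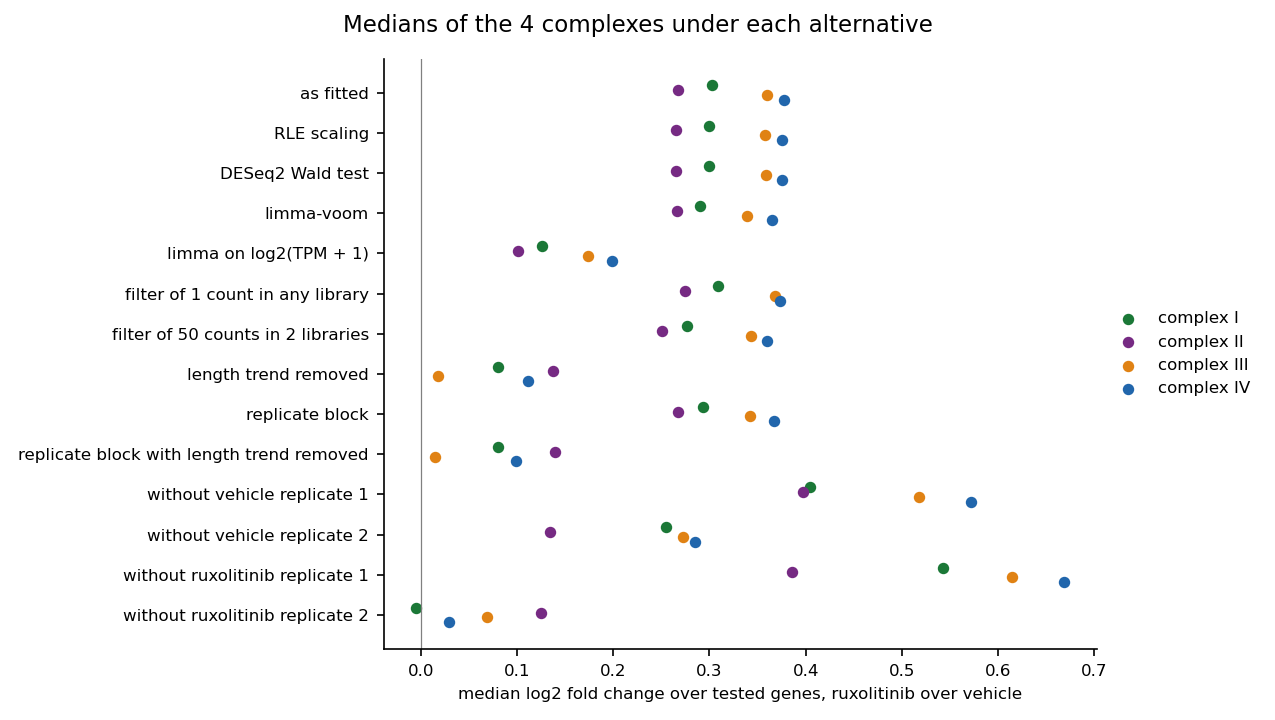
Median log2 fold change (ruxolitinib over vehicle) of the tested genes of each complex on the horizontal axis, under each alternative on the vertical axis. The points lie between 0.25 and 0.38 as fitted and under RLE scaling, the other count tests, the filters and the replicate block, and between 0.10 and 0.20 on log2(TPM + 1). Complexes I, III and IV come nearest to 0 with the length trend removed or without ruxolitinib replicate 2, where complex I is at -0.0049, and complex II on log2(TPM + 1), at 0.10.

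Other genes of mitochondrial energy metabolism were read from gene lists, and 0 genes of these lists passed the test in either direction. Of 19 ATP synthase (complex V) genes tested, which make ATP from the proton gradient, 18 were above 0 with a median of 0.33, and the median was 0.04 with the length trend removed (median length 588 nt). Usmg5, which helps ATP synthase dimers form, was at 25.2 and 43.4 CPM with ruxolitinib and 22.7 and 16.7 CPM with vehicle, without overlap. Atp5b, the catalytic beta subunit and a longer gene, was at 259 and 298 CPM with ruxolitinib and 268 and 263 CPM with vehicle. The 18 tricarboxylic acid cycle and pyruvate dehydrogenase genes, with a median length of 2212 nt, had 9 above 0 and 9 below and a median of -0.02. Cytochrome c, cytochrome c1 and the acyl carrier protein Ndufab1 were all above 0, with a median of 0.28, or 0.04 with the length trend removed. Cyc1, the cytochrome c1 subunit of complex III that the symbol rule leaves out, was at 26.0 and 22.8 CPM with ruxolitinib and 22.04 and 21.98 CPM with vehicle, and Cycs, cytochrome c, at 54.0 and 64.8 CPM against 58.2 and 35.8 CPM.

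Assembly factors are not part of the finished complexes. Of 17 tested complex I assembly genes 11 were above 0 (median 0.12), of 23 for complex IV 16 (median 0.16), of 5 for complex III 3 (median 0.35) and of 3 for complex II 3 (median 0.47). With the length trend removed these medians were 0.10 for complex I, 0.06 for complex IV, 0.09 for complex III and 0.25 for complex II assembly genes. Sdhaf1, which helps insert iron-sulphur clusters into Sdhb, was at 12.4 and 24.6 CPM with ruxolitinib and 13.5 and 4.63 CPM with vehicle, the low value being vehicle replicate 2. Among 15 regulators of mitochondrial gene expression 6 were above 0 and 9 below, with a median of -0.01. Tfam, which packages and transcribes mitochondrial DNA, was at 28.4 and 42.1 CPM with ruxolitinib and 27.44 and 14.02 CPM with vehicle, and Tfb2m, its partner in transcription initiation, at 24.9 and 33.8 CPM against 24.1 and 11.5 CPM. Here vehicle replicate 2 was the library that stood lowest. Gabpb1, a subunit of GABP, was at 111 and 97.1 CPM with ruxolitinib and 116 and 52.4 CPM with vehicle, again lowest in vehicle replicate 2.

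Markers of other cells also moved with ruxolitinib replicate 2. The 9 erythroid markers summed to 9189 and 23227 CPM with ruxolitinib and 9292 and 8950 CPM with vehicle, none of them at 0 in all libraries. Of the 8 B lineage markers, 6 had a log2 fold change above 0 and 2 below. The 8 summed to 1089 and 1907 CPM with ruxolitinib and 1121 and 1360 CPM with vehicle. Lower in that library were the 7 markers of early granulocyte precursors, at 298 and 172 CPM with ruxolitinib and 280 and 302 CPM with vehicle, the 9 proliferation genes, at 667 and 436 CPM against 631 and 740 CPM, and the 8 eosinophil, basophil and mast cell markers, at 926 and 325 CPM against 812 and 1235 CPM. In these bulk libraries fewer cells of a type and less RNA per cell cannot be told apart, and the part of these cells in the respiratory chain values was not tested. The 12 defining neutrophil markers summed to 94454 and 115953 CPM with ruxolitinib and 93135 and 101892 CPM with vehicle. Of these 12 markers, 7 had a log2 fold change above 0 and 5 below. Their median was 0.08, or -0.10 with the length trend removed. Monocyte and macrophage markers summed to 957 and 1203 CPM with ruxolitinib and 975 and 1038 CPM with vehicle. Most of that sum was Ly6c2, at 730 and 993 CPM against 769 and 782 CPM. By log2 fold change, 2 of these markers lay above 0 and 6 below, with a median of -0.31. Dendritic cell markers summed to 618 and 996 CPM against 671 and 410 CPM. Most of that sum was H2-Ab1, at 536 and 937 CPM against 574 and 363 CPM. Of the 5 dendritic cell markers tested, 3 were above 0 and 2 below. T and natural killer cell markers summed to 23.9 and 35.4 CPM against 24.2 and 29.7 CPM, and megakaryocyte and platelet markers to 12.6 and 9.63 CPM against 11.8 and 16.4 CPM.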

How the data were processed

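RNA was measured in 4 libraries of bone marrow neutrophils, 2 with ruxolitinib and 2 with vehicle, grouped by the treatment label, with replicate numbers from the titles. The tools named are Bowtie2, RSEM and DESeq2 and the build GRCm38.p6, per the submitters' processing notes; versions, roles and annotation are not given in the sources used here. Per the file headers, the authors deposited 3 values per gene: a read count, a TPM and an FPKM. The deposited read count is an estimated count, since only 91.0% to 91.1% of values are whole within 1e-06. Effective length was computed as count over FPKM and library total. All 67 symbols matched RefSeq by gene ID.

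Estimated counts were rounded and tested with edgeR 4.0.16 in R 4.3.3: the default filterByExpr filter on low counts, TMM scaling, quasi-likelihood test with group as the term, adjusted over 11611 genes. CPM is on TMM-scaled libraries. SE is the log2 fold change over the square root of F. With 2 against 2 an exact two-sided permutation test cannot go below 0.333 and was not run. The common coefficient of biological variation was 25.7%. Alternatives used RLE, DESeq2 1.42.0, limma 3.58.1 (voom, and log2 of TPM with a pseudocount of 1), filters of 1 or 50 counts, a loess trend on log2 length (span 0.5) as an offset, a replicate block and each library left out. The fits were tested on simulated data. The genes and lists were chosen with earlier results of these data known. Named were, per complex, the 3 highest genes and the 3 smallest p-values in each direction, all complex II genes, the complex IV isoforms with Ndufa4, untested genes, and from each further list up to 2 genes by p and 2 by level, of which a selection is given. The 6 core complex I genes and genes named for a promoter match, isoform share or length were chosen after their values were seen. The motif letters were also chosen with the data in hand. The values of 1 gene are not reported here.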

Additional observations from a re-analysis of the deposited data

How the results depend on the processing

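The median over the 62 genes and over each complex, and the 28 named tested genes, kept their direction and their side of the threshold under RLE scaling, DESeq2, limma-voom, log2(TPM + 1) and both count filters, except that 2 of the 28 were not tested under the filter of 50 counts. With the length trend removed the log2 fold change was -0.048 for Uqcrb and -0.10 for Cox6a1, and with the replicate block added -0.047 and -0.11. On TPM rescaled by the median ratio the log2 ratio of the summed level was 0.19 for complex II and 0.34 for complex III, against 0.03 and 0.17 as deposited. The cause of these differences was not tested.

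Leaving out each library in turn gave log2 fold changes of -0.022 to 0.97 for Ndufa3, -0.12 to 0.73 for Ndufb7, -0.073 to 0.60 for Uqcrb, -0.0038 to 0.67 for Cox8a and -0.059 to 0.0008 for Uqcrc2. The negative values of Ndufa3, Ndufb7, Uqcrb and Cox8a and the positive one of Uqcrc2 were those without ruxolitinib replicate 2. Ndufv1 lay between -0.24 and 0.16, Ndufv3 between -0.28 and 0.17, Uqcrc1 between -0.046 and 0.032 and Cox6b2 between -0.86 and 0.88. Between 36 and 58 of the 62 genes were above 0, and 0 to 1 were called higher. Over all genes 1 to 853 were called higher and 1 to 792 lower, the most in both directions without vehicle replicate 1.

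Libraries with the same replicate number did not deviate together (correlation 0.04 over genes). With 2 libraries a group this cannot show whether they share a mouse or culture, and the labels do not say. A fit with the replicate block called 9 of all genes higher and 7 lower, and with the length trend removed 26 and 14, with 0 respiratory chain genes in both. The counts of genes above 0 under each alternative were chosen after seeing the data. With 2 libraries a group the median standard error of 0.31 limits what could be called.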
